A study of Mus musculus with 39 samples.

Results

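The genes described here code for collagens and for the proteins that assemble with them into extracellular matrix. They were taken from a list of 36 symbols, and each was read from the probe set with the highest mean over all arrays. Of these, 34 were measured among 18194 named genes. Loxl2 was not used because its probe sets carry several genes, and Fbn1 was not named by the annotation used here. The 34 members comprise 7 chains of fibrillar collagens, 4 basement membrane collagens, 6 chains of microfibrils and fibril-associated collagens, 3 anchoring and network collagens, 6 adhesive and matricellular proteins, 2 crosslinking enzymes, 3 elastic fibre genes and 3 proteoglycans.

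Collagen chains fold into triple helices in the secretory pathway and are trimmed outside the cell, where fibrillar collagens line up into fibrils that lysyl oxidases crosslink. In the mammary gland, fibroblasts around the ducts make most of the fibrillar collagen, while epithelial, vascular and fat cells contribute basement membrane collagen. Collagen-rich stroma and its crosslinking are long-studied features of breast tumours.

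RNA of 39 mouse tissue samples was hybridised to Affymetrix 3' expression arrays, and the deposited values are on the log2 scale, so that a difference of 1 is a doubling. The labels give 6 groups. Breast of 15 animals of the genotype Quadruple (SB/Tg/K5Cre/Bcat) gave 19 arrays, breast of 8 Triple (SB/Tg/k5Cre) animals gave 8, and breast of 2 Triple (SB/Tg/Bcat) animals gave 3. The other samples were of Bcat +/- mice: 2 arrays of masses, tissue breast, from animals titled C57ms-0 and C57ms-7, and 3 arrays of tumours on the ventral side, all of a single animal. Normal mammary gland had 4 arrays from 1 Triple Bcat animal (Tbc-139), 1 Quadruple animal (Q440) and 2 Triple k5Cre animals (T627 and T635), which also gave breast arrays. The glands therefore carry the transgenes of the other groups and are not wild type. Sleeping Beauty, in the title of the series, is a transposon that mutates genes by inserting into them, and K5Cre lines express Cre recombinase from the keratin 5 promoter, which is active in basal epithelium. Breast is the only tissue label of the quadruple and triple groups, and a tumour is not stated for them. Strain, sex and age are not given in the labels used here. In the titles, the names of all mass and ventral tumour animals begin with C57, and no gland, quadruple or triple animal has such a name. Whether this mark stands for a strain is not stated. It cannot be separated from the mass and ventral groups, and its part in their differences from the other groups was not tested. Animals were read from the titles, and p-values measure the spread between these samples.

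The array medians lay between 5.10 and 5.27. Quadruple arrays 3 (animal Q2164) and 5 (animal Q629) had the lowest mean over the members of all arrays, and array 5 also had the highest difference between 3' and 5' control probe sets, 1.18 for Gapdh and 1.70 for Actb. In 3 arrays, quadruple 5, triple K5Cre 2 and normal gland 3, Xist was at 5.72, 7.0 and 5.64, against 10.77 or more in the others. The 2 quadruple arrays of animal Q190 correlated at 0.996 over all genes, whereas the 3 arrays of animal Q648 correlated at 0.928 to 0.930. Counts without these arrays are given beside the results they move.

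Of the members, 25 had a promoter in the RefSeq table of mouse assembly GRCm38.p6. The 250 bases before the annotated start of 4 of them are shown: Col1a2 and Col3a1, whose levels followed Col1a1 in both larger groups, and Col7a1 and Col8a1, which were higher than in gland in several groups. Col1a2 lies at chr6:4505368-4505617 and Col3a1 at chr1:45311288-45311537, both on the plus strand, Col7a1 at chr9:108953336-108953585 on the plus strand and Col8a1 at chr16:57754738-57754987 on the minus strand. Capitals mark matches on either strand to the TATA box TATAAA, to CCAAT and to the GC box GGGCGG.
Col1a2: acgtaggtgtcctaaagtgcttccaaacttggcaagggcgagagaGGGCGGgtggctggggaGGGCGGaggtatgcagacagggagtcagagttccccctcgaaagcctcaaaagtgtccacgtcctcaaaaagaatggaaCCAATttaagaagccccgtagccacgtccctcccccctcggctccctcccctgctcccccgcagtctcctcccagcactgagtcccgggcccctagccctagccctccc
Col3a1: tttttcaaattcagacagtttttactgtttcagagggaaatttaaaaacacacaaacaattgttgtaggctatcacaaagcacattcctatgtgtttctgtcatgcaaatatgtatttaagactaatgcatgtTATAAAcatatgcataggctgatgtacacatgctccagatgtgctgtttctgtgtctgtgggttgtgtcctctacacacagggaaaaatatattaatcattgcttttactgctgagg
Col7a1: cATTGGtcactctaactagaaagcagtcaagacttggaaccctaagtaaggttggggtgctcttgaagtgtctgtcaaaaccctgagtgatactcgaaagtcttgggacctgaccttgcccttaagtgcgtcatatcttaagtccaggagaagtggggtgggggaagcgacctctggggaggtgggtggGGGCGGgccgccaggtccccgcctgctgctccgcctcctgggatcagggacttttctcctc
Col8a1: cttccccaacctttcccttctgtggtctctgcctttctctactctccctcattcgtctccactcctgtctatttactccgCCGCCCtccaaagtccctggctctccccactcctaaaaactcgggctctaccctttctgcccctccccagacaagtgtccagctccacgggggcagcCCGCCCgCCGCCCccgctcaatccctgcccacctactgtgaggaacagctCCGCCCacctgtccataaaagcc
Col1a2 holds 1 CCAAT and 2 GGGCGG, Col3a1 holds 1 TATAAA, Col7a1 holds 1 CCAAT and 1 GGGCGG, and Col8a1 holds 4 GGGCGG. The 25 members have 30 such windows, since some have several starts. TATAAA was found in 6 windows (20.0%), CCAAT in 11 (36.7%) and GGGCGG in 17 (56.7%). Over 32851 promoters of the table the shares were 12.4%, 33.8% and 32.7%. A match is a run of letters and was not measured as a binding site.

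The members were spread around gland in the 2 larger groups and mostly above it in the 3 smaller ones. In the quadruple and triple K5Cre groups the median member differed from gland by -0.06 and 0.21, with 16 and 20 of 34 differences above 0. In the triple Bcat group, the masses and the ventral tumours the median difference was 0.84, 1.08 and 1.64, with 28, 29 and 33 of 34 above 0. The median over all 18194 genes lay between -0.011 and 0.023. In tissue arrays such as these, fewer cells of a type and less RNA per cell cannot be told apart. All 5 use the same 4 gland arrays, so their values stand side by side and are not independent of each other. The plot of the members by array shows both the shift in the 3 smaller groups and the wide range within the 2 larger ones.

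**Figure D1:**
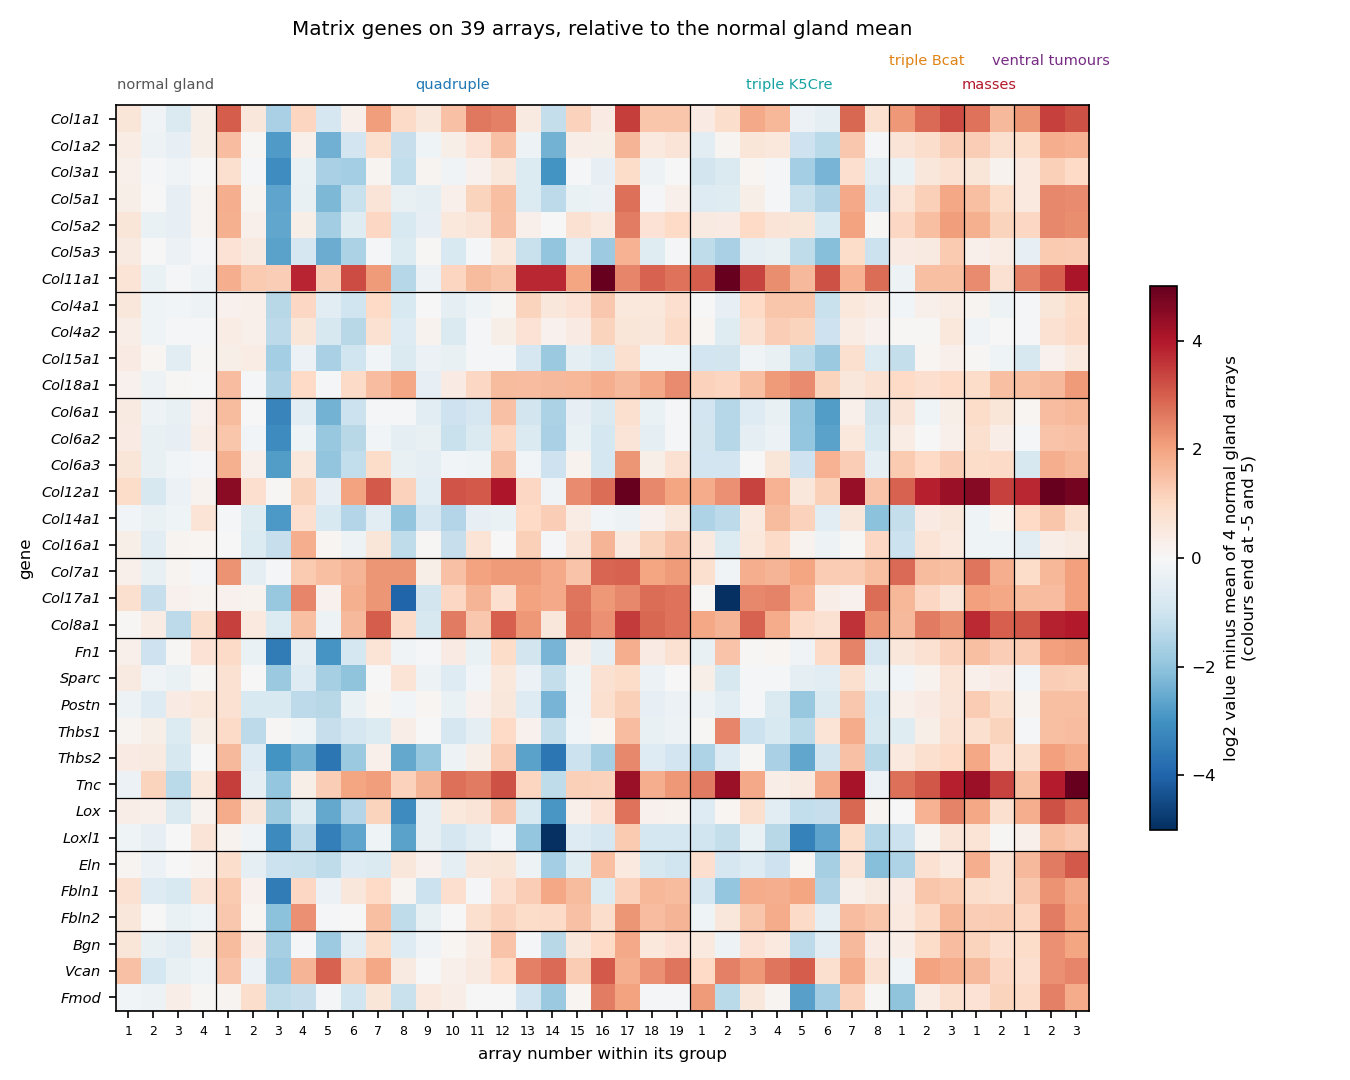
Each column is 1 of 39 arrays, ordered by group, and each line is 1 of 34 matrix genes, ordered by role. The colour is the log2 value minus the mean of the 4 gland arrays, and the scale ends at 5 in either direction. Ventral tumours and masses are above gland for most genes, and quadruple array 3 is below gland for most.

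With limma and a Benjamini-Hochberg adjusted p under 0.05 over all genes, every member called against gland was higher. In the quadruple group 3 of 34 members were called, Col7a1, Col8a1 and Col11a1, which is 8.82% of the members against 15.4% of all genes in either direction and 5.7% of all genes called higher. In the triple K5Cre group 5 of 34 were called, Col11a1, Col8a1, Vcan, Col18a1 and Col12a1, or 14.7% against 17.2% and 7.44%. In both groups the share of members lies between the 2 background shares and is no result about the members as a class. In the triple Bcat group 2 were called, Col12a1 and Col7a1, or 5.88%, against a background of 7.12% in either direction and 1.74% higher. In the masses 3 were called, Col8a1, Col12a1 and Col7a1, or 8.82%, against 7.28% and 2.6%. In the ventral tumours 2 were called, Col12a1 and Col8a1, or 5.88%, against 4.03% and 0.813%. No member was called lower, where 9.66%, 9.79%, 5.38%, 4.68% and 3.22% of all genes were.

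The 6 genes called in at least 1 comparison lie apart in the genome (GRCm38.p6): Col7a1 at chr9:108953586-108984875, Col12a1 at chr9:79598987-79721141, Col8a1 at chr16:57624256-57754737, Col11a1 at chr3:114030479-114220756, Col18a1 at chr10:77052178-77166530 and Vcan at chr13:89655309-89743027.

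**Figure D2:**
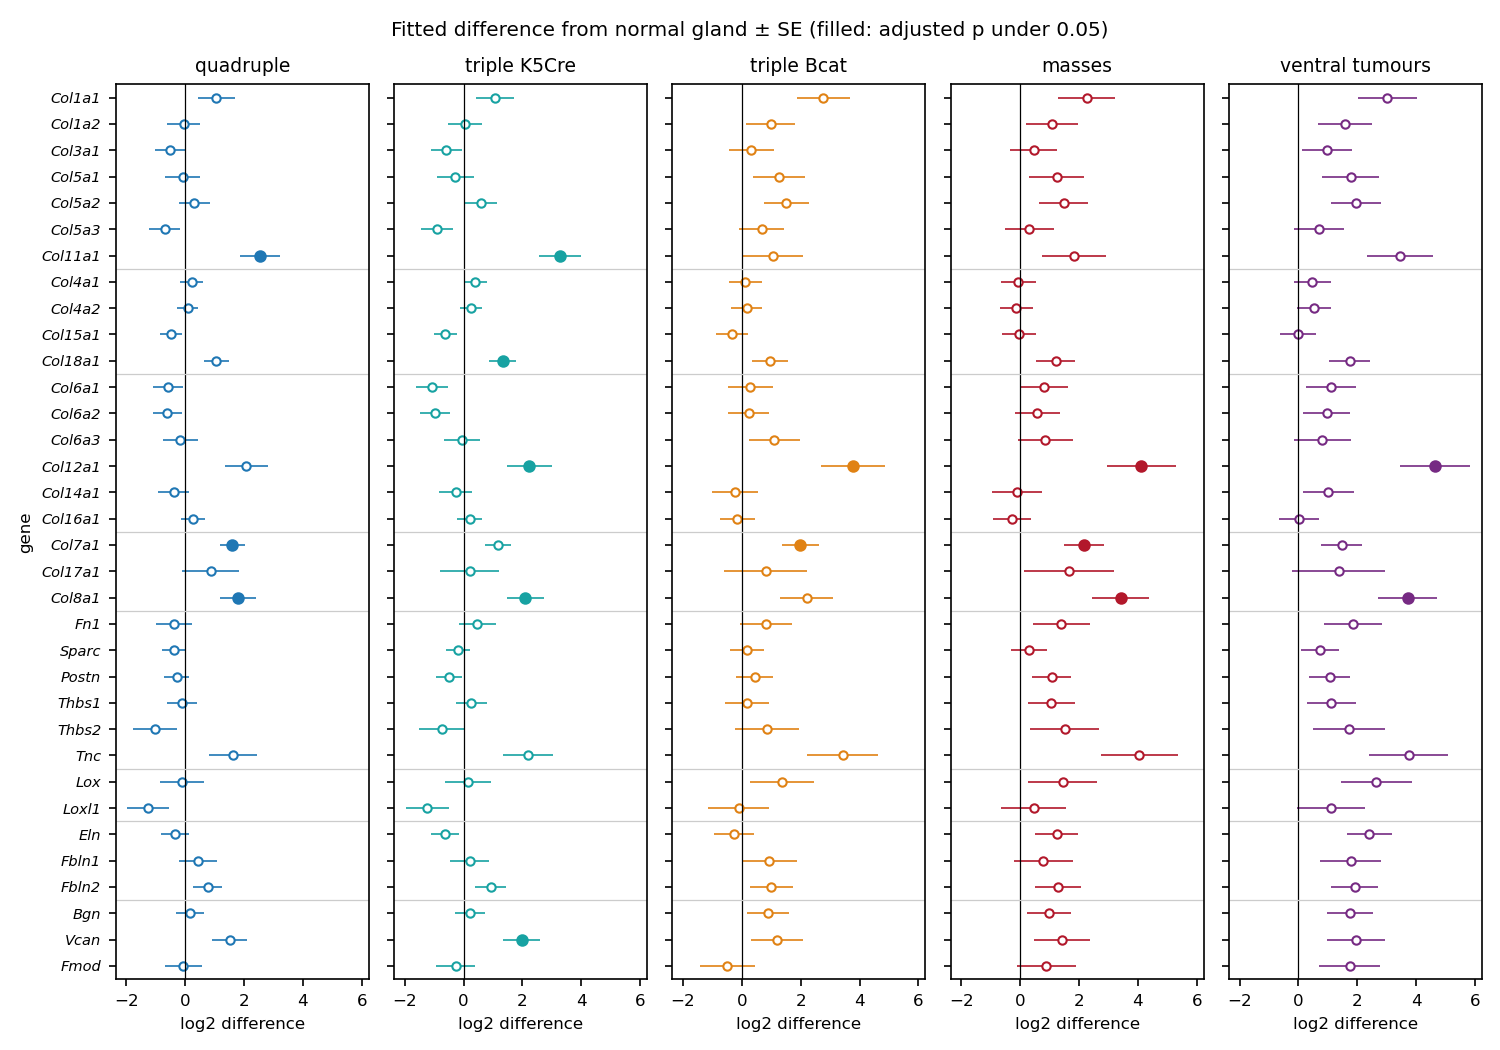
Fitted log2 difference from normal gland for 34 matrix genes, 1 panel per group, with bars of 1 standard error. Filled points have an adjusted p under 0.05. Col12a1 and Col8a1 lie to the right of 0 in all 5 panels, and in the ventral panel 33 of 34 points are above 0.

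The number called depends on how the spread is estimated. These differences were tested with a spread shared by all groups, which includes the wide quadruple group. Fitted on the arrays of the 2 groups alone, 8 of 34 members were called in triple Bcat, 14 in the masses and 21 in the ventral tumours. In these fits 11.2%, 20.2% and 24.2% of all genes were called. The ventral arrays are of 1 animal, so the 21 does not measure a spread between ventral tumour animals. With 1 value per animal, the ventral tumours are a single animal, and no count is given for them. Leaving out each gland array in turn, the count in the quadruple group fell to 1 without gland array 3, and in the triple K5Cre group to 2, 1 and 2 without gland arrays 2, 3 and 4. In the triple Bcat group it was 0 without gland array 2, 3 or 4, 0 without array 1 or 2 of that group, and 1 without gland array 1 or array 3 of that group. In the masses it was 0 without gland array 3 or without either mass. In the ventral tumours it was 0 without gland array 3 or ventral array 2 or 3, and 1 without gland array 2. For these counts with 1 array left out the share of all genes is not given. Without the 2 low quadruple arrays 6 members were called in the quadruple group, against 18% of all genes. Without the 3 arrays low in Xist, 2, 2, 0, 2 and 0 members were called in the same order of groups, against 9.57%, 10.2%, 4.08%, 4.59% and 1.66% of all genes.

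Counting arrays that lie above all 4 glands needs no model. None of the members had all 19 quadruple arrays above gland, where 0.654% of all genes did, and 2 had all 8 triple K5Cre arrays above, against 4.82%. In triple Bcat 11 of 34 members did, against 12.4% of all genes. In the masses 23 of 34 members did, against 22.2% of all genes, and in the ventral tumours 21 of 34, against 16.8%. No member had every array of a group below every gland, where 1.85%, 5.66%, 16.1%, 22.5% and 20.4% of all genes did.

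Markers of other tissues differed along with these groups. A list of 12 adipocyte genes averaged 12.24 in gland, with arrays from 11.99 to 12.43, and 6.50 to 7.60 in the 5 other groups, whose arrays ranged from 4.96 to 12.17. A list of 15 skeletal muscle genes averaged 11.40 in gland and 4.69 to 7.10 elsewhere. With both list means as covariates 0 members were called in each of the 5 comparisons with gland, where 0.555%, 0.484%, 0.324%, 0.0495% and 0.0989% of all genes were called. The median member difference in that fit was 0.71, 0.80, 1.51, 2.08 and 2.33. Both list means differ strongly between gland and the other groups, so this fit cannot separate the covariates from the groups. The squamous list averaged 5.99 in gland, 9.63 in quadruple, 8.99 in triple K5Cre and 11.47 to 12.41 in the other groups. The neutrophil list averaged 6.35, 7.75, 7.51 and 9.94 to 10.47 in the same order. With squamous and neutrophil means as covariates 0 members were called in triple Bcat, the masses and the ventral tumours. The share of all genes called in that fit is not given here, so the 0 is no result about the members as a class.

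Fibroblast markers were lower than in gland in the 2 larger groups. The 12 genes of this list, such as Pdgfra, Dpt and Pi16, averaged 9.21 in gland, from 8.93 to 9.52, 7.73 in quadruple, from 6.02 to 9.13, and 7.41 in triple K5Cre, from 6.13 to 8.87. In these groups 4 and 5 of the 12 genes fell and none rose. That is 33.3% and 41.7%, against 15.4% and 17.2% of all genes called in either direction. The fibroblast list averaged 8.64 in triple Bcat, 8.78 in the masses and 9.69 in the ventral tumours. With the fibroblast mean as a covariate, an alternative chosen after seeing the data, 16, 16, 12, 10 and 4 members were called, all higher, in quadruple, triple K5Cre, triple Bcat, masses and ventral tumours. The share of all genes called under that covariate was 10.6%, 8.99%, 10.5%, 9.3% and 5.44%. The list mean itself was lower than in gland in every group but the ventral tumours. It also followed Col1a1 over animals (r = 0.86 in quadruple and 0.95 in triple K5Cre). A rise of the members in this fit is therefore partly built in and is no result about them as a class.

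Among the fibrillar collagens, Col1a1 and Col1a2 code for the chains of type I collagen, the main collagen of stroma. Col1a1 in gland read 8.95, 8.15, 7.59 and 8.63, a mean of 8.33 ± 0.59 (SD, n = 4). Quadruple arrays ran from 6.70 through a median of 9.40 to 11.77, a mean of 9.37 ± 1.36 (SD, n = 19), and triple K5Cre from 7.86 through 9.16 to 11.19, a mean of 9.30 ± 1.13 (SD, n = 8). Quadruple had arrays below and above all glands, and triple K5Cre overlapped the glands with 5 of 8 arrays above them all.

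Triple Bcat arrays read 10.50, 11.16 and 11.58 for Col1a1, the masses 11.06 and 9.96, and the ventral tumours 10.54, 11.76 and 11.51. All 8 of these arrays lay above all 4 glands, by fitted differences of 2.77, 2.26 and 3.02. None passed the adjusted threshold (limma adjusted p 0.0530, 0.159 and 0.0789), and quadruple and triple K5Cre, at 1.06 and 1.07, had adjusted p of 0.270 and 0.264.

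Col1a2 was among the brightest genes of the array, at percentile 99.7 of mean levels. Gland read 12.96, 12.36, 12.18 and 12.91, quadruple 9.76 to 14.31 with a median of 12.88, and triple K5Cre 11.27 to 13.96 with a median of 12.62. Triple Bcat read 13.26, 13.50 and 13.84, the masses 13.85 and 13.40, and the ventral tumours 13.53, 14.42 and 14.34, all above gland. A second Col1a2 probe set gave larger differences of group means, 2.89 against 1.5 in the ventral tumours and 2.23 against 0.93 in triple Bcat. In quadruple and triple K5Cre it gave 0.83 and 0.89, where the probe set used gave -0.08 and -0.04. The position of Col1a2 relative to gland in these 2 groups therefore depends on the probe set.

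Col3a1, the type III chain that forms fine reticular fibrils, was equally bright. Gland read 13.32, 12.95, 12.88 and 13.05, a mean of 13.05 ± 0.19 (SD, n = 4). Quadruple ran from 9.96 through 12.87 to 13.98 and triple K5Cre from 10.74 through 12.42 to 13.88, with 10 of 19 and 5 of 8 arrays below every gland. The fitted differences were -0.50 and -0.59 (adjusted p 0.582 and 0.506). Triple Bcat read 12.73, 13.60 and 13.80, the masses 13.65 and 13.23, and the ventral tumours 13.56, 14.24 and 14.06. These 3 groups differed from gland by 0.33, 0.45 and 0.97, with adjusted p of 0.861, 0.808 and 0.600.

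Type V chains regulate the width of type I fibrils. For Col5a1, Col5a2 and Col5a3 the fitted difference ranged from -0.69 to 0.31 in quadruple and from -0.92 to 0.59 in triple K5Cre, and from 0.70 to 1.94 in the ventral tumours. None of these passed the threshold. Col5a2 had all arrays of triple Bcat, masses and ventral tumours above gland.

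Col11a1, the type XI chain best known from cartilage, was low in gland and higher in nearly every quadruple and triple K5Cre array. Gland read 5.56, 4.57, 4.78 and 4.64. Quadruple ran from 3.45 through 6.85 to 10.33, with 17 of 19 arrays above all glands, and triple K5Cre from 6.52 through 7.80 to 10.52, with 8 of 8 above. It rose by 2.54 ± 0.69 (SE) in quadruple, with adjusted p 0.00942. In triple K5Cre it rose by 3.28 ± 0.72 (SE), with adjusted p 0.00116. The gland values lie near the array medians of 5.10 to 5.27 and were not separated from background, so no fold is given.

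Animals T627 and T635 gave both tissues, and Col11a1 was higher in their breast array by 5.74 and 3.65. A limma fit on these 2 animals alone, with the animal as a replicate block, called 0 of all genes, and 14 of 34 members had an unadjusted p under 0.05 in it, as did 14.8% of all genes. Of the members 13 were higher in both animals' breast, 9 lower in both and 12 opposite, where the shares of all genes were 32.1%, 30.7% and 37.2%. The list of cartilage and bone genes was low in all groups, at means of 4.54 to 5.49, and triple K5Cre, at 5.49 against 5.17 in gland, was the highest. In triple Bcat Col11a1 read 4.62, 6.38 and 6.40, in the masses 7.26 and 5.65 and in the ventral tumours 7.39, 7.86 and 8.97. The ventral difference of 3.46 had an adjusted p of 0.0747, and those of triple Bcat and the masses, 1.07 and 1.84, had 0.592 and 0.340.

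**Figure D3:**
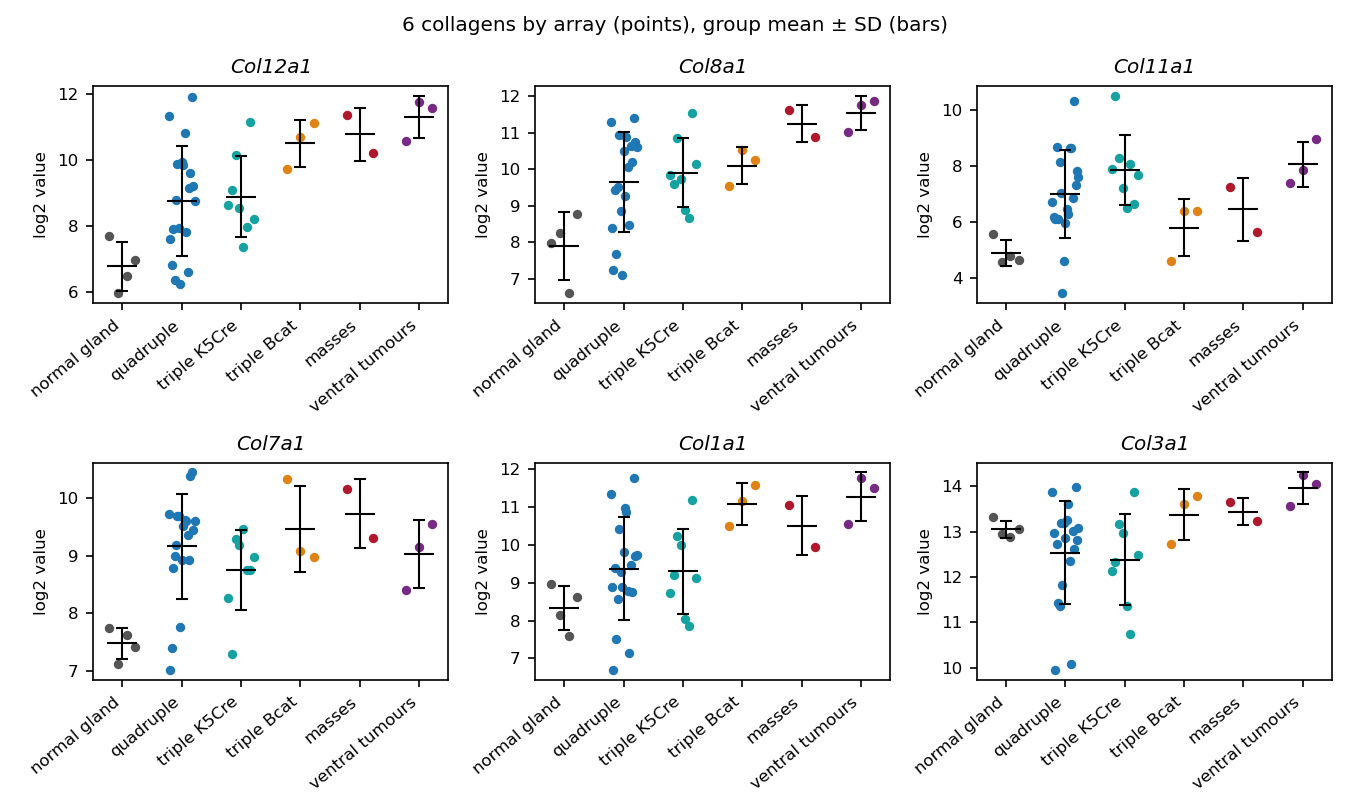
Log2 values of Col12a1, Col8a1, Col11a1, Col7a1, Col1a1 and Col3a1 in every array, by group, with the mean and SD as bars. Col12a1 in the triple Bcat, mass and ventral arrays lies between 9.72 and 11.76, above all glands. Col3a1 in gland lies within 12.88 to 13.32 while quadruple spans 9.96 to 13.98.

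Of the basement membrane collagens only Col18a1 was called, in triple K5Cre. Col4a1 and Col4a2, the paired chains of type IV collagen in every basement membrane, differed from gland by -0.13 to 0.53 over the 5 comparisons and passed no threshold. Col15a1, of the zone below the basement membrane, differed by -0.62 to -0.01 and also passed none. Col18a1, the source of the fragment endostatin, read 8.47, 8.01, 8.32 and 8.25 in gland. Quadruple ran from 6.75 through 9.80 to 10.61, with 15 of 19 above all glands, and triple K5Cre from 8.84 through 9.41 to 10.61, all 8 above. It rose by 1.32 ± 0.44 (SE) in triple K5Cre, 2.51-fold, with adjusted p 0.0341. The quadruple difference of 1.05 had an adjusted p of 0.0941 and was called without the 2 low arrays. All triple Bcat, mass and ventral arrays were above gland too, between 9.11 and 10.38, by 0.96, 1.21 and 1.74 (adjusted p 0.394, 0.309 and 0.157).

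Among fibril-associated collagens, Col12a1, which binds to the surface of type I fibrils, had the largest member differences in the 3 smaller groups. Gland read 7.70, 5.97, 6.50 and 6.96. Triple Bcat read 9.72, 10.68 and 11.10, the masses 11.34 and 10.21, and the ventral tumours 10.57, 11.76 and 11.56, all above all glands. It rose by 3.77 ± 1.08 (SE) in triple Bcat, 13.6-fold, with adjusted p 0.0275. In the masses it rose by 4.12 ± 1.17 (SE), 17.4-fold, with adjusted p 0.0251. In the ventral tumours it rose by 4.64 ± 1.21 (SE), with adjusted p 0.0231.

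In the larger groups Col12a1 was higher on average with wide overlap. Quadruple ran from 6.25 through 8.79 to 11.88, with 14 of 19 arrays above all glands, and triple K5Cre from 7.36 through 8.58 to 11.14, with 7 of 8 above. It rose by 2.24 ± 0.77 (SE) in triple K5Cre, with adjusted p 0.0383, while the quadruple difference of 2.08 missed the threshold at 0.0516. A second probe set for Col12a1 correlated at 0.948 with the one used and gave smaller differences of group means. They were 2.25 against 3.72 in triple Bcat, 2.81 against 4.0 in the masses and 3.48 against 4.51 in the ventral tumours. In quadruple and triple K5Cre they were 1.2 against 1.98 and 1.09 against 2.1.

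Type VI collagen forms beaded microfibrils around cells, from the products of Col6a1, Col6a2 and Col6a3. Col6a1 had 11 of 19 quadruple and 6 of 8 triple K5Cre arrays below all glands, with differences of -0.58 and -1.07 (adjusted p 0.518 and 0.179), and Col6a2 had 10 and 6 such arrays. In the ventral tumours the 3 chains differed by 0.81 to 1.11 with no call. Col14a1 and Col16a1, further fibril-associated collagens, differed by -0.39 to 1.01 over the 5 comparisons and passed no threshold.

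Of the anchoring and network collagens, Col7a1 forms the anchoring fibrils that tie stratified epithelium to the stroma. Gland read 7.74, 7.12, 7.62 and 7.43. Quadruple ran from 7.02 through 9.44 to 10.44, with 17 of 19 above all glands, triple Bcat read 10.32, 9.08 and 8.97, and the masses 10.16 and 9.30. It rose by 1.60 ± 0.43 (SE) in quadruple, 3.04-fold, with adjusted p 0.00843. It rose by 1.99 ± 0.63 (SE) in triple Bcat, with adjusted p 0.0484, and by 2.17 ± 0.68 (SE) in the masses, with adjusted p 0.0442. Triple K5Cre ran from 7.30 through 8.87 to 9.46, by 1.18 (adjusted p 0.0632), and the ventral tumours read 8.40, 9.14 and 9.54, by 1.47 (adjusted p 0.250).

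Col8a1, a short-chain collagen that forms networks, was called in 4 of the 5 comparisons. Gland read 7.97, 8.26, 6.60 and 8.78. Quadruple ran from 7.11 through 10.07 to 11.41 and triple K5Cre from 8.68 through 9.79 to 11.53, with 14 of 19 and 7 of 8 above all glands. The masses read 11.61 and 10.89, the ventral tumours 11.02, 11.76 and 11.86, and triple Bcat 9.54, 10.51 and 10.24. Every array of these 3 groups was above gland.

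Col8a1 rose by 1.79 ± 0.61 (SE) in quadruple, with adjusted p 0.0407. In triple K5Cre it rose by 2.09 ± 0.63 (SE), with adjusted p 0.0181. It rose by 3.41 ± 0.96 (SE) in the masses, with adjusted p 0.0246, and by 3.71 ± 0.99 (SE) in the ventral tumours, 13.1-fold, with adjusted p 0.0277. The triple Bcat difference of 2.20 had an adjusted p of 0.130. Col17a1, the hemidesmosomal collagen of basal keratinocytes, had a wide range, from 3.21 to 11.17 in triple K5Cre and from 4.38 to 11.19 in quadruple. Its gland values were 9.20, 7.23, 8.59 and 8.52, and no comparison was called.

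Of the adhesive and matricellular genes none passed the threshold against gland in any group. Fn1 codes for fibronectin, on which collagen fibrils assemble. Gland read 10.66, 9.35, 10.46 and 11.10, quadruple 6.91 to 12.22 with a median of 10.20, and triple K5Cre 9.55 to 12.88 with a median of 10.47. Triple Bcat read 10.94, 11.14 and 11.53, the masses 11.89 and 11.63, and the ventral tumours 11.67, 12.44 and 12.51. The masses and ventral arrays lay above all glands, by 1.40 and 1.85 (adjusted p 0.422 and 0.318). The differences in quadruple, triple K5Cre and triple Bcat were -0.38, 0.46 and 0.82, with adjusted p of 0.751, 0.688 and 0.645.

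Tnc codes for tenascin C, a matricellular protein of wounds and tumour stroma. Gland read 7.42, 8.82, 6.38 and 8.24, and quadruple ran from 5.79 through 9.42 to 12.04 with 14 of 19 above all glands. Triple K5Cre ran from 7.43 through 9.61 to 12.04, triple Bcat read 10.49, 10.81 and 11.61, the masses 11.99 and 11.11 and the ventral tumours 9.23, 11.64 and 12.86. All arrays of the 3 smaller groups lay above gland. The differences were 1.63, 2.20, 3.43, 4.05 and 3.75 in that order of groups, with adjusted p of 0.197, 0.0731, 0.0790, 0.0507 and 0.108.

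Sparc, a collagen-binding chaperone-like protein, and Postn, periostin, were bright in all tissues. Sparc read 12.99, 12.37, 12.22 and 12.60 in gland, 10.54 to 13.45 with a median of 12.32 in quadruple, and 11.76 to 13.34 with a median of 12.30 in triple K5Cre. It read 12.40, 12.72 and 13.24 in triple Bcat, 12.80 and 12.97 in the masses, and 12.42, 13.78 and 13.72 in the ventral tumours. The 5 differences ran from -0.38 to 0.73 with no call, and every group overlapped gland.

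Postn read 11.78, 11.38, 12.44 and 12.57 in gland, 9.72 to 13.25 with a median of 11.77 in quadruple, and 10.16 to 13.40 with a median of 11.42 in triple K5Cre. It read 12.30, 12.46 and 12.70 in triple Bcat, 13.30 and 12.92 in the masses, and 12.18, 13.55 and 13.55 in the ventral tumours. Only the masses lay wholly above gland, and the differences ran from -0.50 to 1.08 with no call. Thbs1 and Thbs2, the thrombospondins, differed by -1.03 to 1.72 over the 5 comparisons. Thbs2 had 11 of 19 quadruple arrays below all glands and all 3 ventral arrays above them.

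Lox and Loxl1 crosslink collagen and elastin. Lox read 9.02, 8.93, 7.95 and 8.85 in gland and 10.52, 11.86 and 11.38 in the ventral tumours, a difference of 2.65 with adjusted p 0.230. Quadruple spanned 5.54 to 11.41 around a median of 8.91. Loxl1 had 14 of 19 quadruple and 6 of 8 triple K5Cre arrays below all glands, the lowest difference of any member in both groups, -1.26 and -1.24 (adjusted p 0.252 and 0.264). A second Loxl1 probe set, at r = 0.881 with the one used, gave differences of group means of -0.38 and -0.42, against -1.29 and -1.3.

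Of the elastic fibre genes, Eln codes for elastin. Gland read 7.69, 7.25, 7.54 and 7.69, and the ventral tumours 9.16, 10.13 and 10.63, above every gland and every quadruple and triple K5Cre array. Quadruple ran from 5.84 through 7.11 to 9.03 and triple K5Cre from 5.42 through 6.79 to 8.39. Triple Bcat read 6.0, 8.30 and 8.02 and the masses 9.34 and 8.29. The ventral difference from gland was 2.40 with adjusted p 0.0660. A second Eln probe set, at r = 0.75 with the one used, gave smaller differences of group means. They were 1.04 against 2.43 in the ventral tumours and 0.46 against 1.27 in the masses. Fbln1 and Fbln2, fibulins of elastic fibres and basement membrane, differed by 0.22 to 1.91 with no call.

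Among the proteoglycans, Vcan codes for versican, a large hyaluronan-binding proteoglycan of provisional matrix. Gland read 8.76, 6.41, 6.92 and 7.05, so that the first gland, Tbc-139, stood above the others. Triple K5Cre ran from 8.03 through 9.30 to 10.32, with 5 of 8 above all glands, and quadruple from 5.45 through 8.72 to 10.37, with 9 of 19. It rose by 1.97 ± 0.62 (SE) in triple K5Cre, with adjusted p 0.0237, and the quadruple difference of 1.51 had 0.0854. Triple Bcat read 7.12, 9.31 and 9.14, the masses 8.90 and 8.33 and the ventral tumours 8.12, 9.58 and 9.74, all overlapping the glands. Bgn, biglycan, and Fmod, fibromodulin, bind collagen fibrils and differed by -0.50 to 1.74 with no call.

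The members were also ordered by their group means. The ventral tumours had the highest mean for 26 of 34 members, the masses for 4, triple Bcat for 2, and gland and triple K5Cre for 1 each. Gland had the lowest mean for 13, triple K5Cre for 9, quadruple for 8, the masses for 3 and triple Bcat for 1. The ventral arrays are of 1 animal, so this order does not separate that animal from its genotype.

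Between the quadruple group and the other groups apart from gland no member was called. Against triple K5Cre the median member difference was -0.10, and 0 of 18194 genes were called (0%). The smallest p belonged to Fn1, -0.84 with a 95% interval of -1.80 to 0.12, Col11a1, -0.74 (-1.84 to 0.37), and Col7a1, 0.42 (-0.26 to 1.11), each with adjusted p 0.995. None of the 34 members had an unadjusted p under 0.05, as did 4.46% of all genes. Each of these intervals still allows a difference of more than 1. So do those of other members, such as Col17a1 (-0.88 to 2.18) and Tnc (-1.89 to 0.74).

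Against triple Bcat the median member difference was -0.64, with 27 of 34 below 0, where 0.033% of all genes were called, all lower, and 2 members had an unadjusted p under 0.05, as did 8.39% of all genes. Col1a1 differed by -1.71 ± 0.76 (SE), Col5a3 by -1.37 ± 0.65 (SE) and Thbs2 by -1.88 ± 0.93 (SE), with adjusted p of 0.583, 0.587 and 0.588. In 15, 15 and 16 of 19 quadruple arrays the value was below all 3 triple Bcat arrays. No member had all 19 arrays below or above, where 0.0879% and 0.104% of all genes did.

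Against the masses the median was -1.01, with 29 of 34 below 0, and 0.214% of all genes were called, 0.176% lower and 0.0385% higher. Of the members 5 had an unadjusted p under 0.05, as did 8.09% of all genes. None had all 19 arrays below or above both masses, where 0.813% and 0.649% of all genes did. Eln differed by -1.59 ± 0.64 (SE), Thbs2 by -2.54 ± 1.03 (SE) and Postn by -1.37 ± 0.58 (SE), with adjusted p of 0.477, 0.478 and 0.516. Against the ventral tumours the median was -1.44, with 32 of 34 below 0, and 0.143% of all genes were called, 0.132% lower and 0.011% higher. Of the members 14 had an unadjusted p under 0.05, all lower, as did 9.43% of all genes in either direction. Eln differed by -2.74 ± 0.67 (SE), with all 19 quadruple arrays below all 3 ventral arrays and an adjusted p of 0.105. Eln was the 1 member so separated, where every array lay below for 0.539% of all genes and above for 0.61%. Fn1 differed by -2.23 ± 0.87 (SE) and Lox by -2.75 ± 1.07 (SE), each with adjusted p 0.454. With no replicate block Eln was called, as it was without ventral array 1. The ventral arrays in both fits are of 1 animal.

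With weights for the arrays estimated from the data, 10, 9, 14, 7 and 27 members were called against gland, in the order quadruple, triple K5Cre, triple Bcat, masses and ventral tumours. The same fit called 37.1%, 35%, 36.2%, 23.2% and 31.4% of all genes. In it, 8 members were lower in quadruple than in triple Bcat and 24 than in the ventral tumours, where 14.1% and 20.7% of all genes were called.

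Arrays within the quadruple and triple K5Cre groups were spread widely. The median SD over members was 1.15 in quadruple and 1.00 in triple K5Cre, against 0.44 in gland, and the SD exceeded that of gland for 34 and 33 of 34 members. The highest quadruple array was array 17 (animal Q545) for 20 of 34 members, and the lowest was array 3 (animal Q2164) for 17. In triple K5Cre, array 7 (animal T852) was highest for 18 and array 6 (animal T848) lowest for 13. Col1a1 spanned 33.6-fold over the quadruple arrays and Col5a1 41.7-fold.

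Within each group the members were set against Col1a1 over animals, as 33 relations adjusted together. Over the 15 quadruple animals 32 of 33 members had a positive Pearson r, with a median of 0.80, and 23 had a permutation adjusted p under 0.05 (21 by Spearman). Without the 2 animals farthest from the median Col1a1, Q2164 and Q545, 19 did. The 3 lowest animals, at 6.70, 7.14 and 7.51, lay below a gap to the next at 8.58, and without them 16 did, with a median r of 0.62. Over the 8 triple K5Cre animals 14 did by an exact permutation test (9 by Spearman), with a median r of 0.67, and 3 did without T852 and T848. Over all other genes the median r was -0.16 and -0.08. In quadruple an r of 0.80, that of Col8a1, stood at percentile 98.6 among all genes. In triple K5Cre an r of 0.67, that of Sparc, stood at percentile 95.5. The share of all genes passing the permutation test is not given, so the counts passing are no result about the members as a class.

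**Figure D4:**
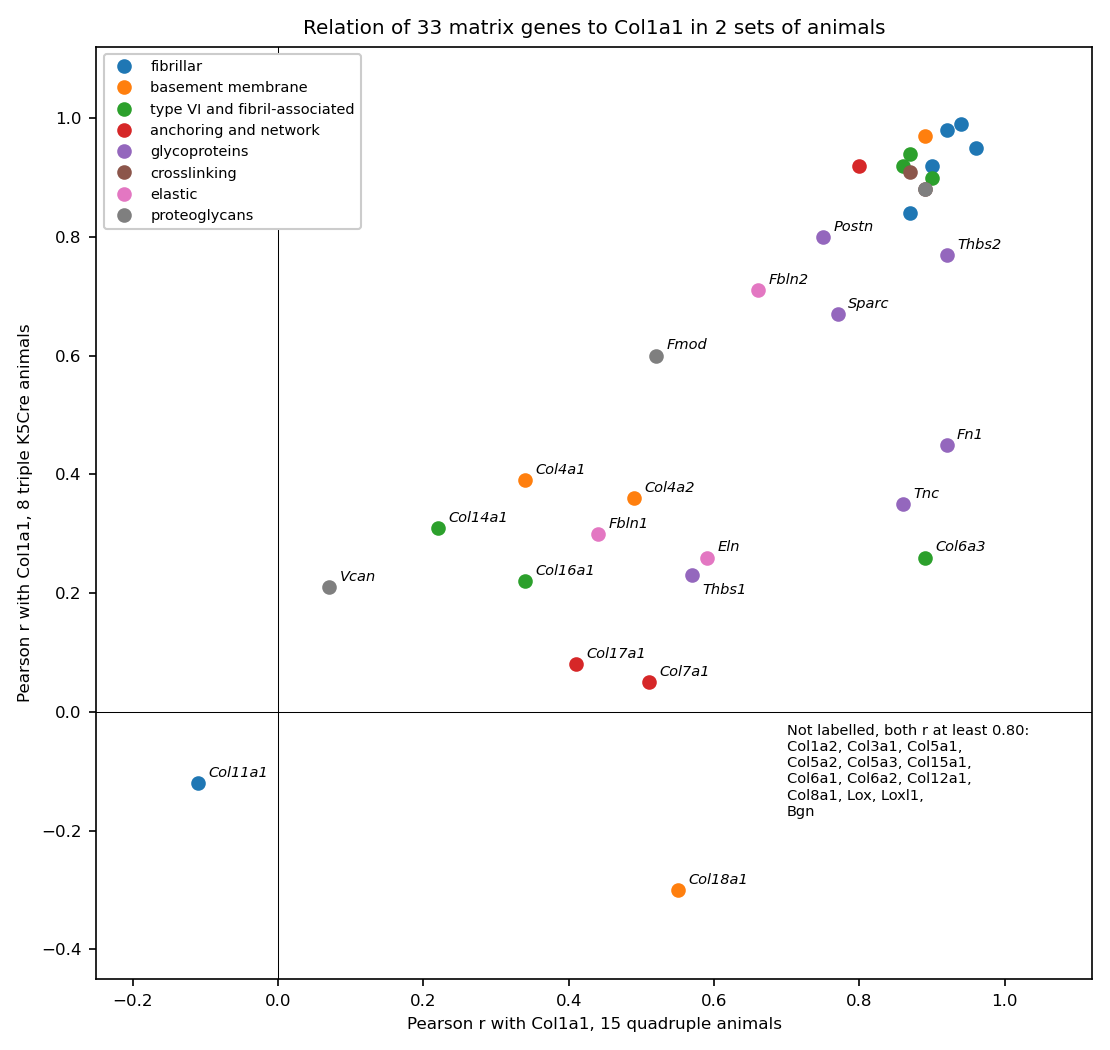
Pearson r of each of 33 matrix genes with Col1a1 over 15 quadruple animals (horizontal axis) and over 8 triple K5Cre animals (vertical axis), coloured by role. Fibrillar chains other than Col11a1 lie in the upper right corner, and Col11a1 and Vcan lie near 0 on both axes.

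The chains that build type I and associated fibrils followed Col1a1 in both groups. Col1a2 had r = 0.94 and rho = 0.95 in quadruple (permutation p 1e-05 for both, the smallest these resamples can give) and r = 0.99 and rho = 1.00 in triple K5Cre (exact permutation p 2.48e-05 for r). Without the 2 animals farthest from the median they were 0.92 and 0.98. Col3a1 had r of 0.92 and 0.98, Col5a1 0.96 and 0.95 and Col15a1 0.89 and 0.97. In all, 13 members had r of 0.80 or more in both groups: these 4, Col5a2, Col5a3, Col6a1, Col6a2, Col12a1, Col8a1, Lox, Loxl1 and Bgn.

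Other members did so in 1 group or in neither. Fn1 had r = 0.92 over quadruple animals and 0.45 over triple K5Cre animals, Tnc 0.86 and 0.35, and Col6a3 0.89 and 0.26. The difference between the groups was not tested. Col6a3 in triple K5Cre had r = 0.83 without T852 and T848. Col11a1 had r of -0.11 and -0.12 (permutation p 0.701 and exact permutation p 0.773), Vcan 0.07 and 0.21, and Col14a1 0.22 and 0.31. Col4a1 had 0.34 and 0.39, and Col18a1 0.55 and -0.30.

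Pairs of members, chains of 1 molecule among them, were also compared with each other, as 16 relations chosen after the values were seen. Col4a1 and Col4a2 had r of 0.96 and 0.99 in the 2 groups, and Col6a1 and Col6a2 0.99 and 1.00, where rho was 0.90 and 0.98 and 0.96 and 1.00. Col6a1 and Col6a3, also chains of type VI, had r = 0.94 and rho = 0.90 in quadruple but r = 0.02 and rho = 0.33 in triple K5Cre (exact, adjusted 0.968), and there r = 0.83 without the 2 farthest animals. The adjusted permutation p was 2.67e-05 for all 3 pairs in quadruple. Col11a1 and Vcan, which are not chains of 1 molecule, had r of 0.64 (adjusted permutation p 0.0129) in quadruple and -0.04 in triple K5Cre (exact, adjusted 0.968).

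**Figure D5:**
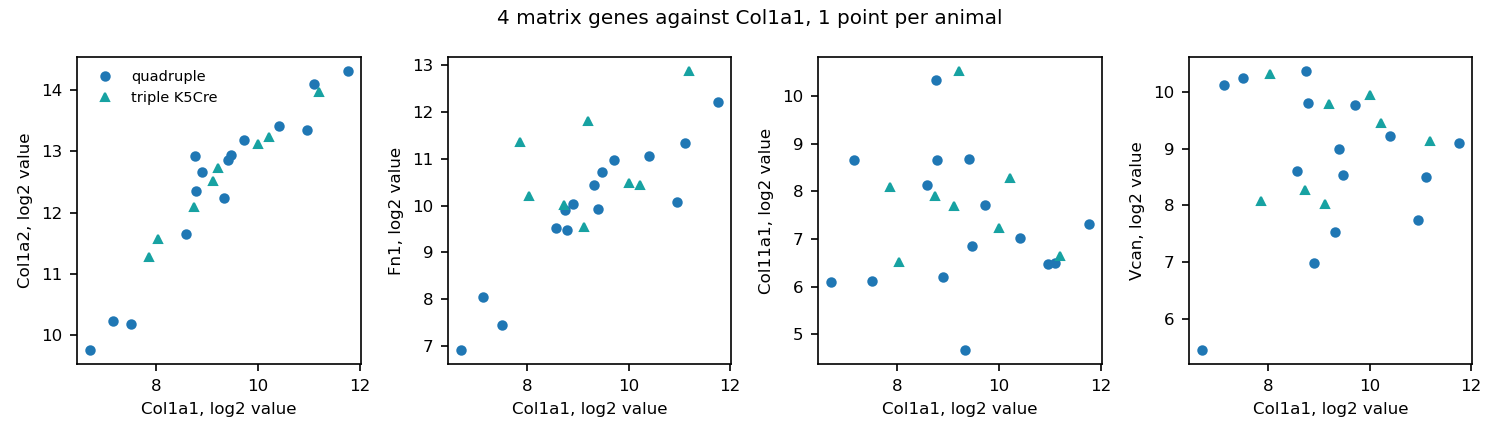
Log2 values of Col1a2, Fn1, Col11a1 and Vcan (vertical axes) against Col1a1 (horizontal axes), 1 point per animal, for 15 quadruple and 8 triple K5Cre animals. Col1a2 rises with Col1a1 in both groups, and Col11a1 shows no slope in either.

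Cell type lists moved with Col1a1 too, and their part in these relations was not tested. The fibroblast list had r = 0.86 and rho = 0.86 over quadruple animals (adjusted permutation p 0.00056) and r = 0.95 and rho = 0.90 over triple K5Cre animals (exact, adjusted 0.00463). The macrophage list had r = 0.84 and rho = 0.77 (adjusted permutation p 0.00056) and r = 0.70 and rho = 0.60 (exact, adjusted 0.130). Over quadruple animals the endothelial list had r = 0.76 (adjusted permutation p 0.00251), the neutrophil list 0.76 (adjusted permutation p 0.00251) and the squamous list 0.72 (adjusted permutation p 0.00596). Over triple K5Cre animals these had r of 0.62, 0.61 and 0.24 (exact, adjusted 0.202, 0.202 and 0.684). The list of general epithelial genes had r = 0.01 and -0.22. In each group 16 lists were adjusted together. The 4 genes most like Col1a1 outside the members, by Pearson r over animals, were Tfpi2 (0.947), Sema7a (0.946), Pla1a (0.942) and Mrc2 (0.942) in quadruple. In triple K5Cre they were Ctsk (0.983), Fap (0.982), Adamts12 (0.971) and Mfap5 (0.969).

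Genes that process collagen had 11.8%, 23.5%, 11.8%, 5.88% and 5.88% called against gland, where 15.4%, 17.2%, 7.12%, 7.28% and 4.03% of all genes were. The order is quadruple, triple K5Cre, triple Bcat, masses and ventral tumours. Of 17 such genes 1 rose and 1 fell in quadruple, 3 rose and 1 fell in triple K5Cre, 1 rose and 1 fell in triple Bcat, and 1 rose in the masses and in the ventral tumours. P4ha3, a subunit of the prolyl hydroxylase that stabilises the helix, was called higher in all 5. Its mean was 3.46 in gland, 4.66 in quadruple, 4.61 in triple K5Cre and 6.51 in the ventral tumours. The first 3 lie below every array median and were not separated from background, so the size of its differences is uncertain. Plod2, the lysyl hydroxylase of collagen telopeptides, rose by 1.51 in triple K5Cre. Pcolce2, an enhancer of procollagen cleavage, fell by 4.09 in quadruple, by 4.35 in triple K5Cre and by 3.44 in triple Bcat.

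Of 18 matrix receptors 3 rose and 1 fell in quadruple and 4 rose and 1 fell in triple K5Cre. This is 22.2% and 27.8% of the list, against 15.4% and 17.2% of all genes. Sdc1, the epithelial syndecan, rose in all 5 groups, by 1.74, 2.17, 2.39, 2.82 and 2.68. Itgb4, the hemidesmosomal integrin, rose by 1.20 in quadruple, Cd44, the hyaluronan receptor, by 1.30 in triple K5Cre and by 1.75 in triple Bcat. Ddr2, the fibrillar collagen receptor of stromal cells, fell by 1.53 in quadruple and by 1.81 in triple K5Cre.

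The laminin and basement membrane list had 5 of 14 genes lower in quadruple, and 1 higher and 3 lower in triple K5Cre. Its called shares were 35.7% and 28.6%, against 15.4% and 17.2% of all genes. Lama2, the laminin chain of muscle and fat, fell by 1.69 and 2.04 and Nid1, nidogen, by 1.39 and 1.52 in these groups, and Agrn rose by 0.87 in triple K5Cre. Of 14 other small proteoglycans and elastic fibre genes, 5 fell in quadruple, 6 in triple K5Cre and 2 in triple Bcat, and none rose. The shares are 35.7%, 42.9% and 14.3%, against 15.4%, 17.2% and 7.12% of all genes called in either direction. Ogn, osteoglycin, fell by 4.07, 4.20 and 4.22 in the 3 groups, Efemp1, a fibulin, by 3.71 and 3.79 in the first pair, and Prelp by 3.34 in triple Bcat. Omd, osteomodulin, was lower in quadruple than in the ventral tumours by 2.08 (SE 0.46, adjusted p 0.0463).

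Of 15 genes of the TGF-beta pathway, a main inducer of collagen, Tgfbr3, a co-receptor, fell by 1.49 in quadruple, by 1.65 in triple K5Cre and by 2.81 in the masses. Inhba, an activin subunit, rose by 1.65 in triple K5Cre, and no gene of this list was called in triple Bcat or the ventral tumours. The called shares were 6.67%, 13.3% and 6.67% in quadruple, triple K5Cre and masses, against 15.4%, 17.2% and 7.28% of all genes.

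For 26 of the 34 members other probe sets exist on the array. Of 33 such probe sets with a mean of at least 5, 27 correlated above 0.9 with the probe set used. Col1a1 differed by 2.92 with its other probe set and 2.94 with the first in the ventral tumours, and by 0.44 and 1.04 in quadruple. Col3a1 differed by 1.97 and 0.90 in the ventral tumours and by -0.31 and -0.52 in quadruple, where these are differences of group means.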

How the data were processed

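Total RNA of 39 mouse tissue samples was measured on Affymetrix arrays; the deposited log2 values of 45101 probe sets come from RMA, per the submitters' processing notes, which give no version. Names come from the platform annotation, updated through a RefSeq table of GRCm38.p6. Among probe sets 34958 carried 1 gene, 932 several (not named) and 9211 none; cross-hybridising probe sets stood in where a gene had no other. Detection calls were not used. The members and all lists were chosen with earlier results of these data known.

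All arrays entered 1 limma fit with a mean per group, the animal as a random block (consensus correlation 0.329) and an intensity trend in eBayes. A gene was called where its p, adjusted by Benjamini-Hochberg across 18194 genes, was under 0.05. Fitted differences weigh arrays of an animal together and need not equal differences of printed means. The gland and breast arrays of T627 and T635 are paired by animal; these same-animal arrays correlated at 0.931 and 0.941. Every member is accounted for. Up to 8 called rises and falls per comparison are given in full, or the 3 smallest p where none was called, and up to 2 rises and 2 falls of each pathway list. Correlations used 100000 resamples, or all permutations for 8 animals. The fit was tested on simulated data: of 100 genes changed by 2 on the log2 scale, 92 were recovered in quadruple and 73 in the ventral tumours against gland. At a change of 1 these were 68 and 40, and 10 and 9 unchanged genes were called. Recovery of the members was not tested. In the measured ventral tumours Col12a1 and Col8a1 were called at differences of 4.64 and 3.71. Tnc, Col11a1 and Col1a1, at 3.75, 3.46 and 3.02 with SE of 1.35, 1.13 and 1.00, were not called. The software was limma 3.58.1 in R 4.3.3, and scipy 1.17.1, pandas 2.3.3, numpy 2.4.6 and matplotlib 3.10.9 in Python 3.11.15. Alternatives changed the block, arrays, filter, normalization, probe set, weights, trend and covariates.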

Additional observations from a re-analysis of the deposited data

Results flagged for a closer look

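Of 68 sets of gland or triple K5Cre values tested for a single array far from the others, 5 held one, and chance alone gives about 1 in 20. Triple K5Cre array 2 (animal T627) had the highest Col11a1 of its group, 10.52 against 8.29 for the next, and the lowest Col17a1, 3.21 against 8.45. It is also 1 of the 3 arrays low in Xist. Gland array 1 had the highest Col4a1, 11.89 against 11.18. Gland array 3, of the same animal T627, had the lowest Thbs1, 8.45 against 9.26, and the lowest Lox, 7.95 against 8.85.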

How the results depend on the processing

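All 9 comparisons were refitted, and counts of called members are given in the order quadruple, triple K5Cre, triple Bcat, masses and ventral tumours against gland, as reported 3, 5, 2, 3 and 2. With no replicate block triple K5Cre had 2 and the ventral tumours 7, and Eln was the 1 member called between quadruple and ventral tumours. That fit takes arrays of 1 animal, all ventral arrays among them, as independent. With the 2 paired animals alone and a replicate block, triple K5Cre had 0. With animal means triple K5Cre had 2 and triple Bcat 1, and no count is given for the ventral tumours, a single animal. With only the compared groups triple Bcat had 8, the masses 14 and the ventral tumours 21. The ventral arrays are of 1 animal, so that count does not measure a spread between animals. Cyclic loess left 3 in triple K5Cre, and the mean of all probe sets left 1 in triple Bcat and called 1, Eln, between quadruple and ventral tumours. The share of all genes is not given for the fits with no block, animal means, cyclic loess or all probe sets. Nor is it given for fits with 1 array left out. Changes in these counts are therefore no result about the members as a class. Array weights gave 10, 9, 14, 7 and 27, where 37.1%, 35%, 36.2%, 23.2% and 31.4% of all genes were called, and 8 and 24 for quadruple against triple Bcat and ventral tumours, where 14.1% and 20.7% were. Adipocyte and muscle covariates gave 0 in all 5 comparisons with gland, and the adipocyte covariate called 1, Eln, between quadruple and ventral tumours. Without the 3 arrays low in Xist triple K5Cre had 2, and triple Bcat and the ventral tumours 0.

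Alternatives added after seeing the data gave 16, 16, 12, 10 and 4 with the fibroblast covariate, 0 in each of the last 3 with squamous and neutrophil covariates, and 6 in quadruple without its 2 low arrays. No share of all genes is given for the squamous and neutrophil fit. The covariate lists themselves differ between the groups, so counts with covariates are no result about the members as a class. The fibroblast covariate turned Lox between quadruple and ventral tumours to 0.21, and squamous and neutrophil covariates turned Thbs2 between quadruple and triple Bcat to 0.25; neither was called before or after. Leaving out 1 array of gland, triple Bcat, masses or ventral tumours (no quadruple or triple K5Cre array was left out singly) gave 1 to 3, 1 to 4, 0 to 1, 0 to 2 and 0 to 2, and 0 to 1 for quadruple against ventral tumours and 0 against triple Bcat and the masses. Correlations with Col1a1 in triple K5Cre numbered 3 in place of 14 without 2 animals. The causes were not tested. Of 158 refits of single genes with 1 array left out, 108 kept direction and side of the threshold, 48 lost a call and 2 gained one. Of the 468 other refits of single genes, 363 kept direction and side of the threshold, 65 lost a call, 38 gained one and 2 turned direction. Few arrays and animals limit the precision, and a low value was not separated from background.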
